A study of Mus musculus with 13 samples.

Results

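The genes described here drive cells through G2 phase and mitosis. They were chosen by name from a list of 39 mouse symbols, from the proliferation marker Mki67 to the separase gene Espl1, and 37 of them have a row among the 19505 named genes of the array values. Ccnb1 (cyclin B1) and Foxm1 (a transcription factor of G2 genes) were not analysed here.

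Whole bone marrow RNA was hybridised to 13 Affymetrix arrays, in 3 groups named by the guide RNAs that the transplanted cells carried. In every group, LSK cells (the lineage-negative, Sca-1 and Kit positive fraction that holds stem cells and early progenitors) of Cas9 knock-in mice were transduced with guides. After 24 h they were transplanted into C57Bl/6J mice irradiated with 7 Gy. The group BRSST+sgEzh2 (n = 4) had the BRSST guides and a guide to Ezh2, the catalytic subunit of the repressive complex PRC2. The group BRSST+sgLuc (n = 5) had the BRSST guides and a guide named for luciferase, and the group sgLuc (n = 4) had that guide without BRSST. All 3 groups therefore share Cas9, irradiation and transplantation. The labels do not spell out BRSST, and marrow was taken at signs of leukemia or after 6 months, without saying which held for each array. The labels give neither the age of the mice nor how much of the marrow is still host cells or unedited. They also do not state whether each array comes from its own mouse, so p-values measure only the spread between these arrays, which may be technical.

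A dividing cell copies its DNA in S phase, builds up mitotic kinases and spindle proteins in G2, and breaks most of them down at the end of mitosis. The transcripts of these genes are made mainly in G2 and early mitosis, so in a tissue they mark cycling cells. In bone marrow, cycling is known for early granulocyte, erythroid and B cell precursors, while mature neutrophils do not divide. In a bulk sample, fewer cells of a type and less RNA per cell cannot be told apart.

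Many G2 and mitosis promoters carry 2 short elements: the cell cycle genes homology region (CHR, TTTGAA or TTCAAA on the opposite strand), bound by the MuvB complexes, and the CCAAT box (CCAAT or ATTGG), bound by NF-Y. The RefSeq promoters of build GRCm38.p6 (250 bases before to 50 bases after the start) gave a window for 32 of the 39 genes, 34 windows in all, since Prc1 and Bub3 each have 2 that overlap. A CHR lay in 25 of the 34 windows (73.5%), against 17.9% of all 32851 promoter windows and 15.3% of those of genes named on the array. A CCAAT box lay in 26 of 34 (76.5%), against 37.4% of all windows. Both lay in 64.7% of the members' windows and in 6.95% of all windows. The CHR variant TTCGAA, which reads the same on both strands, lay in 8.82% of the members' windows and 1.56% of all. Of 30 CHR matches over the 34 windows, 20 began within 40 bases of the start. The CHR of Prc1 and that of Bub3 are each counted in both of their overlapping windows. In 1 case, in Cdca8, matches of different motifs overlapped. Mad2l1, Birc5, Nuf2, Nusap1 and Pttg1 had neither a CHR nor a CCAAT box in the window. A match is a description of the letters and does not show that a factor binds.

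The sequences below are the 130 bases before the start of 7 genes. The first 4 are genes that fell in an array comparison, and the last 3 did not pass the test in any comparison. Nusap1, which fell too, is not shown, since its stretch overlaps the gene Oip5. Top2a, Cdc20, Cdk1 and Mki67 hold a CHR in the stretch shown, and Bub1b, Bub1 and Ttk do not. In the 150 bases before the start, 11 of the 32 genes with a window held a CHR, so these 7 do not stand for the members. A link between motifs and calls was not tested. Capitals mark a CHR, its variant or a CCAAT box, and each stretch is written 5′ to 3′ on the gene's strand. They lie at chr2:118598081-118598210 (plus strand) for Bub1b, chr2:127831860-127831989 (minus) for Bub1, chr9:83834559-83834688 (plus) for Ttk, chr11:99024190-99024319 (minus) for Top2a, chr4:118437344-118437473 (minus) for Cdc20, chr10:69352913-69353042 (minus) for Cdk1 and chr7:135716380-135716509 (minus) for Mki67.
Bub1b: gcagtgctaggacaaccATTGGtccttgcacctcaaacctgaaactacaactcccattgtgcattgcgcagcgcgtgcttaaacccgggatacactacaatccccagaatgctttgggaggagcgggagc
Bub1: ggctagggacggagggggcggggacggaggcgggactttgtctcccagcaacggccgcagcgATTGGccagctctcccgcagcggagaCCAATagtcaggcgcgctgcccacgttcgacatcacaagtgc
Ttk: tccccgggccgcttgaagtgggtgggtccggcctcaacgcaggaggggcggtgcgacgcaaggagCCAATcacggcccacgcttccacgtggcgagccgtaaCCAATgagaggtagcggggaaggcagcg
Top2a: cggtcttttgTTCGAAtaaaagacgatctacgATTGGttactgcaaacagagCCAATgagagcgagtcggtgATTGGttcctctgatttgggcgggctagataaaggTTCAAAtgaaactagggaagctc
Cdc20: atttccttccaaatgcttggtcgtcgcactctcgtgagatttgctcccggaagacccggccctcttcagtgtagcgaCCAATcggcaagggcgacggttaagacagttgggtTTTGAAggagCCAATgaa
Cdk1: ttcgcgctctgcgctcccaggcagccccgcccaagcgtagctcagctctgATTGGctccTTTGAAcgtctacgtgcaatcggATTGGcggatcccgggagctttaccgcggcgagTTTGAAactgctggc
Mki67: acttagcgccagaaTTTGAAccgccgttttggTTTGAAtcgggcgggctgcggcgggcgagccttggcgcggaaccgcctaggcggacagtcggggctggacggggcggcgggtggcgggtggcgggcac
Top2a had 6 CCAAT boxes and 2 CHR matches in its window, part of them upstream of the printed stretch. Bub1b had a single CCAAT box. Its CHR began 41 bases after the start and a CHR variant lay at -188, both outside the printed stretch. Mki67 had 3 CCAAT boxes, all upstream of its printed stretch, and Cdk1 had a further CCAAT box at -208. The CHR of Ttk began 8 bases after the start, and Bub1 had the variant 15 bases after the start in place of a CHR.

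**Figure D1:**
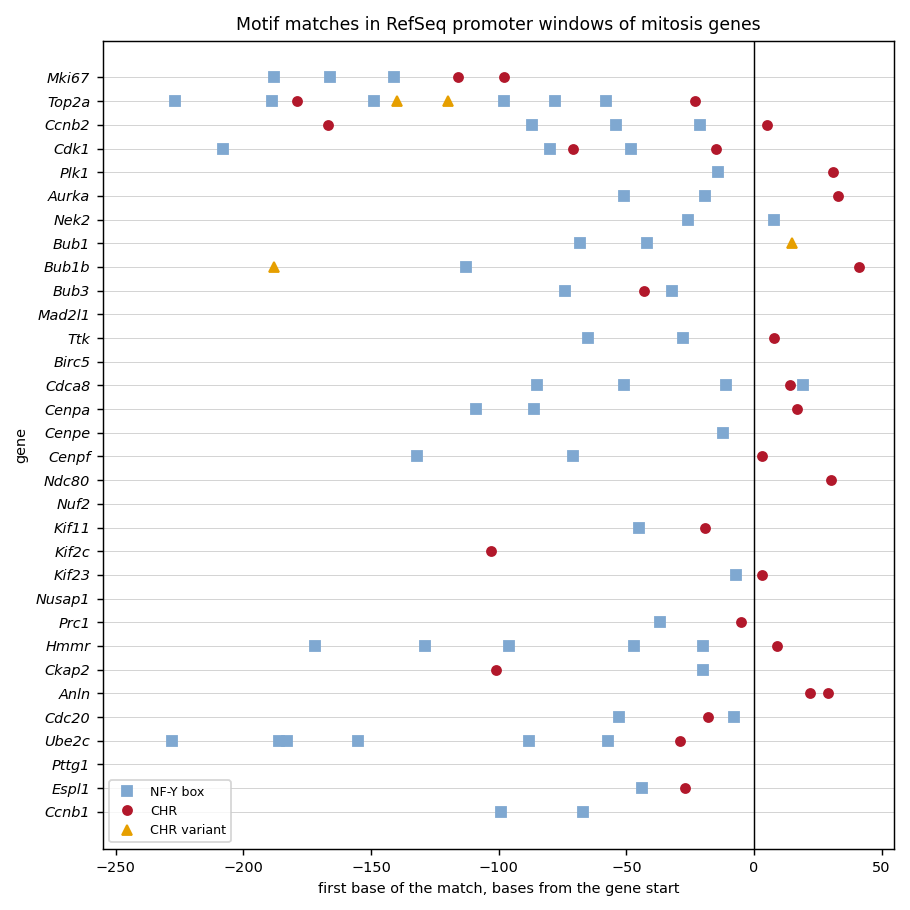
Positions of motif matches (x axis: first base of the match, in bases from the gene start) in 1 promoter window of each of the 32 genes (y axis) with a RefSeq promoter; symbols mark the CHR, its variant and the CCAAT (NF-Y) box. Of the 30 CHR matches over all 34 windows, 20 lie within 40 bases of the start, while CCAAT boxes are mostly further upstream. The CHR of Prc1 and that of Bub3 are each counted in both of their windows.

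All array values below are log2 signals, so a difference of 1 is a doubling, and a difference is between group means. The values run from 3.23 to 13.75, and the array medians lie between 7.19 and 7.32. A gene was tested when it lay above the median of its own array on at least 4 arrays, which 10601 genes and 36 of the 37 measured members did; Ckap2, a spindle protein, did not. Signals of 33 members were above the median on all 13 arrays. Bub1b (above on 9 arrays: 3 of 4, 2 of 5 and all 4 sgLuc arrays) and Cdc25c (2 of 4, 4 of 5 and 2 of 4) were near this limit. The guided gene Ezh2 had a mean of 8.78 ± 0.5 (SD, n = 4) in BRSST+sgEzh2, between 8.08 and 9.22, against 9.82 ± 0.5 (n = 5) in BRSST+sgLuc, between 9.15 and 10.46. The ranges of BRSST+sgEzh2 and BRSST+sgLuc overlap, and a guide cuts a gene without necessarily lowering its RNA. In sgLuc the mean of Ezh2 was 10.35 ± 0.28 (SD, n = 4), between 9.94 and 10.55, above every BRSST+sgEzh2 array. Granule markers of bone marrow granulocytes were high on every array, with a mean over 5 genes between 12.34 and 12.97.

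A pair of arrays stood apart. Replicate 2 of BRSST+sgLuc had the lowest value of its group for 30 of the 37 members, and replicate 3 of BRSST+sgEzh2 had the lowest for 34 of 37. The mean over the 37 members was 9.06 on the former and 9.27 on the latter, against 9.64 to 9.91 on the other 11 arrays. By group the mean was 9.78 ± 0.12 (SD, n = 4) in sgLuc, 9.58 ± 0.3 (n = 5) in BRSST+sgLuc and 9.64 ± 0.26 (n = 4) in BRSST+sgEzh2, and the 3 ranges overlap. On replicate 2 of BRSST+sgLuc the mean over 10 B precursor markers was 8.5 and that over 8 T and NK markers was 8.05, above the 6.79 to 7.29 and 6.43 to 6.54 of the other 4 arrays of the group. On replicate 3 of BRSST+sgEzh2 the T and NK mean was 8.83, the highest of its group. Its B precursor mean was 8.56, below the 8.92 of replicate 2. Replicate 4 of BRSST+sgEzh2 had a T and NK mean of 8.14 and the highest member mean of the group, 9.85. The sgLuc arrays had T and NK means of 8.63 to 8.99 and member means of 9.66 to 9.91. In the groups with BRSST, which hold the pair of low arrays, members also varied more than genes in general. Their median SD was 0.37 in BRSST+sgLuc and 0.27 in BRSST+sgEzh2, against 0.25 and 0.19 over all genes tested. In sgLuc it was 0.16 against 0.15. The part of these cell markers in the members' values was not tested.

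**Figure D2:**
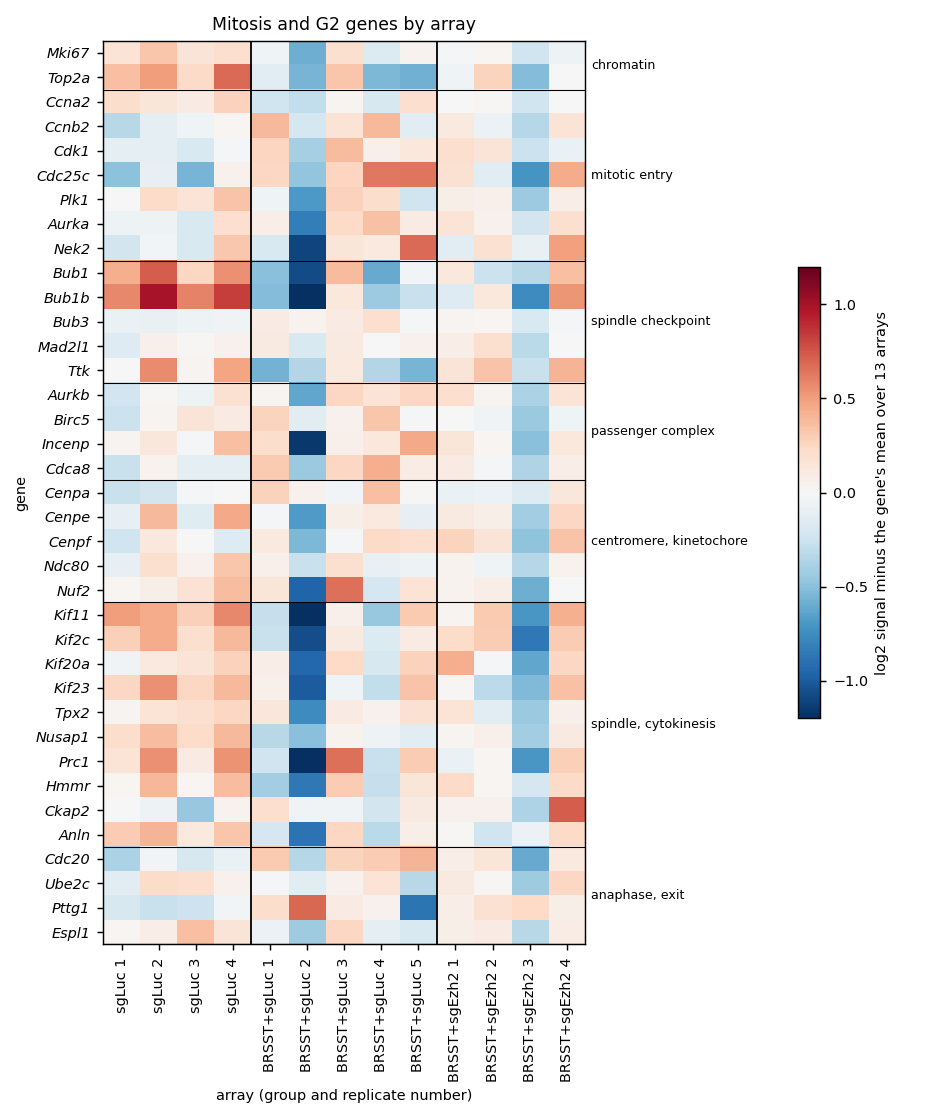
Log2 signal of each of the 37 measured genes (rows) on each of the 13 arrays (columns), minus the gene's mean over all arrays; colours stop at 1.2 either way. The columns of replicate 2 of BRSST+sgLuc and replicate 3 of BRSST+sgEzh2 are low for 30 and 34 of the 37 genes within their groups.

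The first comparison sets the Ezh2 guide against the luciferase guide in cells that all had the BRSST guides. No mitosis gene was called higher or lower. By limma's test with Benjamini-Hochberg adjustment over all genes at 0.05, 0 of 36 members passed, beside 0.783% of all genes (0.67% higher and 0.113% lower). Only 1 member, Ttk, had an unadjusted limma p under 0.05, beside 1472 of all 10601 genes tested. Of the 36 members, 23 were higher and 13 lower in BRSST+sgEzh2, and the median difference was 0.05, against 0.013 over all genes tested. This direction did not hold: with array quality weights 17 were higher and 19 lower (median -0.025), and leaving out 1 array moved the median from -0.087, without BRSST+sgLuc replicate 2, to 0.159, without BRSST+sgEzh2 replicate 3. The intervals limit how large a change could be: for Mki67 the difference was 0.04 with a 95% interval of -0.25 to 0.34, and for Cdk1 it was -0.08, from -0.40 to 0.24. For Bub1b they were wider, at 0.48 and -0.17 to 1.13. The largest difference was that of Ttk, 0.50 ± 0.18 (SE; interval 0.11 to 0.89), with an adjusted p of 0.232 from limma. The groups did not separate for any member, against 3.53% of all genes.

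The second comparison sets the BRSST guides against none, both with the luciferase guide. Here 5 of 36 members fell in BRSST+sgLuc and 0 rose: the checkpoint genes Bub1b, Bub1 and Ttk, the DNA topoisomerase Top2a and the spindle protein Nusap1. That is 13.9% of the members, beside 22.5% of all genes tested (11.7% lower and 10.8% higher). The share called lower is near that of all genes and is not a result about the members. Without the adjustment, 12 of the 36 members had a limma p under 0.05, beside 3723 of all 10601 genes tested. The members' median difference was -0.21, against 0.009 over all genes, with 23 of 36 lower. Without BRSST+sgLuc replicate 2 it was -0.068, against 0.024 over all genes, with 20 of 36 lower. Groups that did not overlap were found for 4 members, Bub1b, Bub3, Kif2c and Nusap1, beside 18.9% of all genes. This comparison and the first share the BRSST+sgLuc arrays. The sgLuc arrays carry label numbers of a range of their own, so a difference between series of arrays and the absence of BRSST cannot be told apart.

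**Figure D3:**
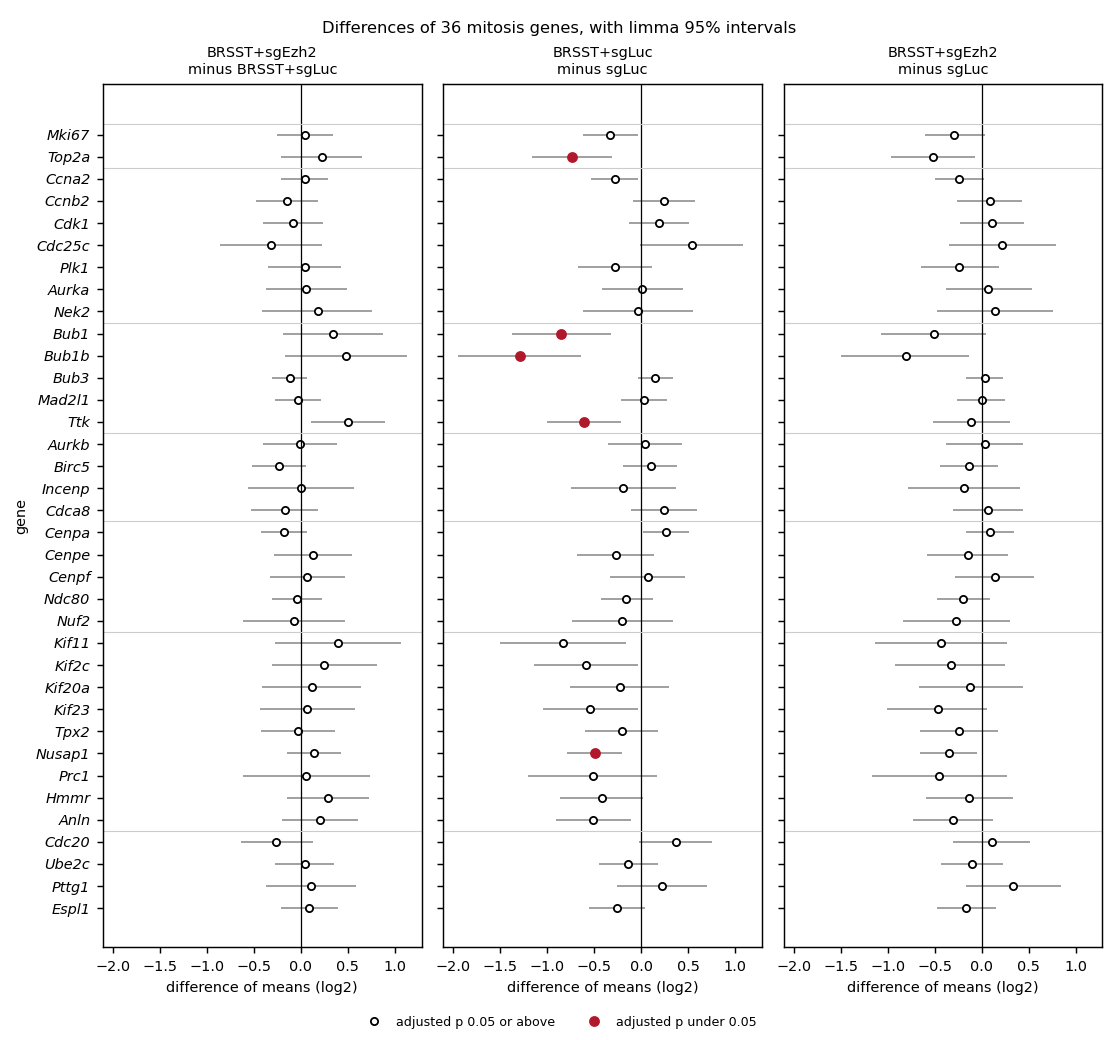
Difference of group means (x axis, log2) of the 36 genes tested (y axis) in the 3 comparisons, each with limma's 95% interval; filled red points passed an adjusted p of 0.05. Filled points appear only in BRSST+sgLuc minus sgLuc, for Bub1b, Bub1, Ttk, Top2a and Nusap1, all below 0.

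The spindle checkpoint holds back chromosome separation until every kinetochore is attached. Of its 5 members here, 3 fell, Bub1b, Bub1 and Ttk, in a comparison that called 22.5% of all genes (11.7% lower). Bub1b (BubR1, which as part of the checkpoint complex holds Cdc20 inactive) had signals of 8.10, 8.52, 8.12 and 8.36 on the sgLuc arrays. On the BRSST+sgLuc arrays it had 7.01, 5.90, 7.65, 7.09 and 7.26, and on the BRSST+sgEzh2 arrays 7.37, 7.65, 6.77 and 8.06. All 5 BRSST+sgLuc arrays and all 4 BRSST+sgEzh2 arrays lie below the lowest sgLuc array. Bub1b fell by 1.29 ± 0.30 (SE) in BRSST+sgLuc, a 2.45-fold lower signal (limma adjusted p = 0.00853). The size of this fold is uncertain, since Bub1b was above the array's median on only 2 of the 5 BRSST+sgLuc arrays, and its lowest value, 5.90, is near the lower quartile of the arrays (5.59 to 5.85). Bub1b was not tested under a filter at the 75th percentile. Leaving out any 1 array of the pair of groups kept this call, with adjusted p from 0.00431 to 0.031.

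Bub1, the kinase that recruits Bub1b to kinetochores, had 9.34, 9.63, 9.15 and 9.45 in sgLuc. It had 8.4, 7.83, 9.29, 8.30 and 8.87 in BRSST+sgLuc, and 9.03, 8.65, 8.57 and 9.27 in BRSST+sgEzh2. The groups overlap through replicate 3 of BRSST+sgLuc. The fall was 0.85 ± 0.25 (SE; limma adjusted p = 0.0238), and it did not pass in 5 of the 9 fits that leave out 1 array: those without BRSST+sgLuc replicate 1 (0.0544) or 4 (0.0569), or sgLuc replicate 1 (0.0546), 2 (0.0734) or 4 (0.056).

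Ttk (Mps1, the kinase that starts checkpoint signalling) had 7.99, 8.56, 8.03 and 8.47 in sgLuc. It had 7.43, 7.64, 8.11, 7.64 and 7.44 in BRSST+sgLuc, and 8.15, 8.34, 7.73 and 8.4 in BRSST+sgEzh2. Of the BRSST+sgLuc arrays, 4 lie below every sgLuc array and replicate 3 lies within their range. Ttk fell by 0.61 ± 0.18 (SE; limma adjusted p = 0.0268), a call lost without BRSST+sgLuc replicate 1 (0.068) or 4 (0.0526), or sgLuc replicate 2 (0.0926) or 4 (0.0789), and with a block for arrays of high or low Y-linked signal, the Y-linked class (0.0565). The checkpoint members Bub3, which binds Bub1 and Bub1b, and Mad2l1, the inhibitor of Cdc20, had differences of 0.15 (adjusted p = 0.245) and 0.03 and did not pass limma's test.

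Of the chromatin genes, Top2a untangles sister chromatids. Its signals were 10.75, 10.89, 10.62 and 11.07 in sgLuc, 10.26, 9.83, 10.72, 9.85 and 9.81 in BRSST+sgLuc, and 10.34, 10.66, 9.87 and 10.38 in BRSST+sgEzh2. Replicate 3 of BRSST+sgLuc again lies within the sgLuc range, and the other 4 lie below it. Top2a fell by 0.74 ± 0.20 (SE; limma adjusted p = 0.0174), and the call was lost without sgLuc replicate 4 (adjusted p = 0.055) and with the Y-linked class as a block (0.0634). Mki67 (Ki-67, which coats mitotic chromosomes) had 12.15, 12.32, 12.14 and 12.19 in sgLuc, 11.94, 11.40, 12.18, 11.82 and 12.03 in BRSST+sgLuc, and 11.97, 12.01, 11.75 and 11.93 in BRSST+sgEzh2. Its difference of -0.33 ± 0.14 (SE) did not pass the test (limma adjusted p = 0.104).

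The spindle and midbody group had 9 tested members, among them motor proteins and microtubule bundlers. All 9 had lower means in BRSST+sgLuc than in sgLuc, with differences from -0.83 to -0.21, beside 5187 of all 10601 genes tested. For each of the 9, replicate 2 was the lowest BRSST+sgLuc array. Only Nusap1 passed limma's test, in a comparison that called 22.5% of all genes. Nusap1, which binds microtubules near chromosomes, had 10.38, 10.54, 10.39 and 10.56 in sgLuc. It had 9.84, 9.67, 10.21, 10.11 and 10.03 in BRSST+sgLuc, and 10.20, 10.23, 9.75 and 10.28 in BRSST+sgEzh2. Every array with BRSST lies below every sgLuc array. Nusap1 fell by 0.49 ± 0.14 (SE; limma adjusted p = 0.0188), a call lost without sgLuc replicate 2 (0.0555) or 4 (0.0534), and with the Y-linked class as a block (0.0698). Kif11 (Eg5, the motor that pushes spindle poles apart) had 9.39, 9.33, 9.17 and 9.46 in sgLuc, 8.61, 7.35, 8.95, 8.43 and 9.20 in BRSST+sgLuc, and 8.92, 9.20, 8.19 and 9.31 in BRSST+sgEzh2. Its difference was -0.83 ± 0.31 (SE; limma adjusted p = 0.0694). Replicate 2 of BRSST+sgLuc is the lowest array for Kif11, and 1 array of that group lies within the sgLuc range.

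**Figure D4:**
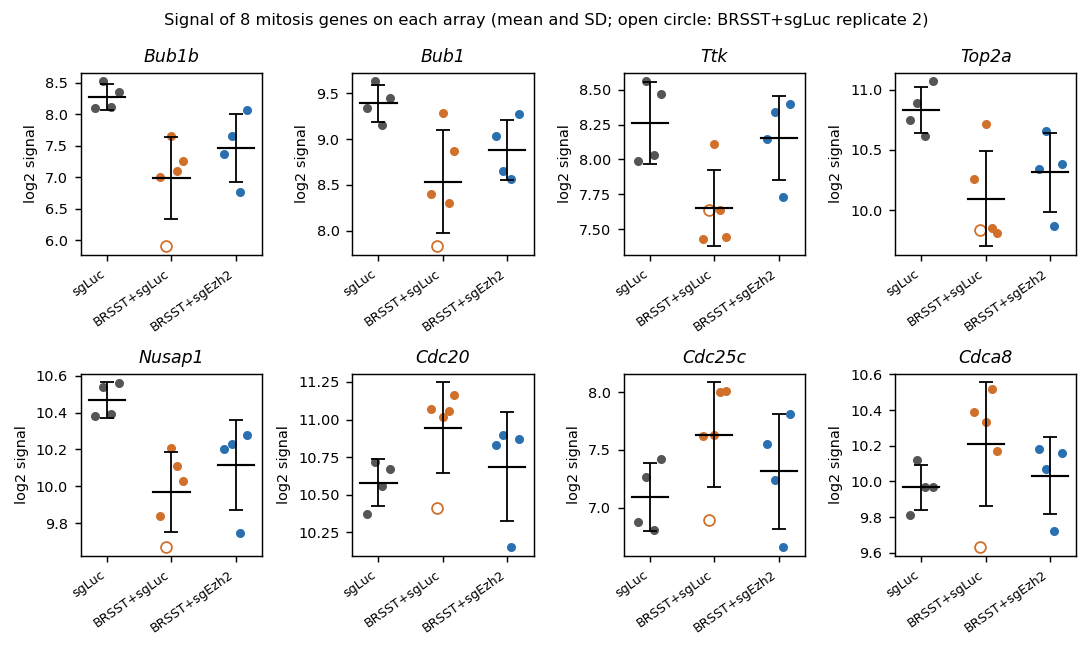
Log2 signal (y axis) of 8 genes on each array by group (x axis), with group means and SD; the open circle is BRSST+sgLuc replicate 2. For Bub1b and Nusap1 every array with BRSST lies below the sgLuc arrays, while for Cdc20, Cdc25c and Cdca8 the open circle lies below the other 4 BRSST+sgLuc arrays.

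Of the genes of mitotic entry and exit, 0 of 7 and 0 of 4 tested members passed limma's test between BRSST+sgLuc and sgLuc, beside 22.5% of all genes. At an unadjusted limma p under 0.05 there were 1 and 0, beside 3723 of all 10601 genes. The median differences were 0.01 and 0.04. Cdk1, the kinase that drives mitosis, had 11.19, 11.20, 11.13 and 11.29 in sgLuc, 11.57, 10.91, 11.69, 11.37 and 11.44 in BRSST+sgLuc, and 11.51, 11.47, 11.05 and 11.23 in BRSST+sgEzh2. Replicate 2 was the only BRSST+sgLuc array below the sgLuc range, and the difference was 0.19 ± 0.15 (SE; interval -0.13 to 0.51). Ccna2 (cyclin A2, a partner of Cdk1) had 10.27, 10.20, 10.16 and 10.33 in sgLuc, 9.82, 9.76, 10.09, 9.87 and 10.26 in BRSST+sgLuc, and 10.05, 10.07, 9.82 and 10.05 in BRSST+sgEzh2, a difference of -0.28 ± 0.11 (limma adjusted p = 0.0914).

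Cdc25c, the phosphatase that activates Cdk1, had 6.88, 7.27, 6.81 and 7.42 in sgLuc, 7.62, 6.90, 7.63, 8.0 and 8.01 in BRSST+sgLuc, and 7.55, 7.24, 6.66 and 7.81 in BRSST+sgEzh2. Cdc20, which activates the anaphase-promoting complex, had 10.37, 10.72, 10.56 and 10.67 in sgLuc, 11.07, 10.41, 11.02, 11.06 and 11.16 in BRSST+sgLuc, and 10.83, 10.90, 10.15 and 10.87 in BRSST+sgEzh2. For both, 4 BRSST+sgLuc arrays lie above all sgLuc arrays and replicate 2 lies among them. The differences of 0.54 ± 0.25 (SE) and 0.37 ± 0.18 did not pass limma's test (adjusted p = 0.148 and 0.162). Without replicate 2 of BRSST+sgLuc they were 0.72 and 0.50, with adjusted p of 0.0307 and 0.0292. The count of members called was then 8, the same 5 lower and these 2 and Cdca8 higher, beside 26.4% of all genes.

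The chromosomal passenger complex corrects wrong attachments and guides cytokinesis. Between BRSST+sgLuc and sgLuc, 0 of its 4 members passed limma's test, beside 22.5% of all genes. At an unadjusted limma p under 0.05 there were also 0 of 4, beside 3723 of all 10601 genes. Cdca8 (borealin) had 9.81, 10.12, 9.97 and 9.97 in sgLuc, 10.39, 9.63, 10.33, 10.52 and 10.17 in BRSST+sgLuc, and 10.18, 10.07, 9.72 and 10.16 in BRSST+sgEzh2. Its difference was 0.24 ± 0.16 (SE; limma adjusted p = 0.336), and 0.38 (adjusted p = 0.0345) without replicate 2 of BRSST+sgLuc. Birc5 (survivin) had 11.15, 11.44, 11.57 and 11.51 in sgLuc, 11.68, 11.28, 11.46, 11.74 and 11.40 in BRSST+sgLuc, and 11.42, 11.37, 10.97 and 11.36 in BRSST+sgEzh2. The 3 groups overlap for Birc5, and the differences lay between -0.23 and 0.10.

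Of the 5 kinetochore genes, 0 passed limma's test between BRSST+sgLuc and sgLuc, beside 22.5% of all genes. Only 1, Cenpa, had an unadjusted limma p under 0.05, beside 3723 of all 10601 genes. Cenpa, the histone variant that marks centromeres, had 11.47, 11.52, 11.72 and 11.73 in sgLuc, 12.01, 11.79, 11.70, 12.10 and 11.75 in BRSST+sgLuc, and 11.66, 11.67, 11.58 and 11.87 in BRSST+sgEzh2. The difference between BRSST+sgLuc and sgLuc was 0.26 ± 0.11 (SE; limma adjusted p = 0.111), with 1 array of BRSST+sgLuc inside the sgLuc range. Cenpe, a kinetochore motor, had 9.41, 9.89, 9.36 and 9.96 in sgLuc, 9.49, 8.82, 9.57, 9.62 and 9.41 in BRSST+sgLuc, and 9.61, 9.57, 9.09 and 9.75 in BRSST+sgEzh2. Its groups overlap, and its difference was -0.27 ± 0.19 (SE; limma adjusted p = 0.346).

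The third comparison sets both kinds of guides together, BRSST and Ezh2, against the luciferase guide, and shares the sgLuc arrays with the second. By limma 0 of 36 members passed, beside 9.37% of all genes tested (5.51% higher and 3.86% lower). An unadjusted limma p under 0.05 was found for 3 members, Bub1b, Top2a and Nusap1, beside 2575 of all 10601 genes. The smallest adjusted p was 0.134, that of Bub1b, whose difference was -0.81 ± 0.32 (SE; interval -1.50 to -0.13). The members' median difference was -0.14, against 0.023 over all genes, and 24 of 36 were lower. Without BRSST+sgEzh2 replicate 3 it was -0.035, against 0.027 over all genes, and 20 of 36 were lower. Groups did not overlap for 5 members, Mki67, Ccna2, Bub1b, Nusap1 and Pttg1 (securin), beside 23.3% of all genes. In a limma fit of these 2 groups alone, 2 members passed, Bub1b (adjusted p = 0.0414) lower and Pttg1 higher, beside 17.2% of all genes.

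Most of the cell type marker lists, and Y-linked signal, moved with the groups of the second comparison. The mean over 11 erythroid markers lay between 7.74 and 8.68 in BRSST+sgLuc and between 7.06 and 7.48 in sgLuc. Over 10 B precursor markers it lay between 6.79 and 8.5 against 9.15 and 10.56, and over 8 T and NK markers between 6.43 and 8.05 against 8.63 and 8.99. Over 5 basophil and mast cell markers it lay between 7.50 and 7.93 against 9.80 and 10.42. Primary granule markers (5 genes) lay between 12.64 and 12.97 in BRSST+sgLuc, above the 12.34 to 12.49 of sgLuc. Mature neutrophil markers (10 genes, 12.37 to 12.51 against 12.78 to 12.94) and monocyte and macrophage markers (8 genes, 8.38 to 9.69 against 9.93 to 10.13) lay below sgLuc on every array. Between BRSST+sgEzh2 and BRSST+sgLuc the ranges of the 9 marker lists overlap, but single markers differed. All 8 monocyte and macrophage markers were higher in BRSST+sgEzh2 (median difference 0.87), 6 of them at an unadjusted p under 0.05, and Mpeg1, a macrophage gene, rose by 1.38 ± 0.28 (SE; limma adjusted p = 0.0371). All 8 tested erythroid markers were lower (median -0.89), 5 at an unadjusted p under 0.05, and limma called 0 of them. Over all 10601 genes tested, 1472 had an unadjusted limma p under 0.05 in this comparison, and 0.783% were called. Y-linked signal was high on all 4 sgLuc arrays, on 2 of 5 BRSST+sgLuc arrays and on 2 of 4 BRSST+sgEzh2 arrays. With this class as a block, 2 members passed in the second comparison (Bub1 and Bub1b), beside 22.6% of all genes. On the arrays of the high class alone, 18 passed, 13 lower and 5 higher, beside 34.5%. The part of the cell types in the members' differences was not tested.

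**Figure D5:**
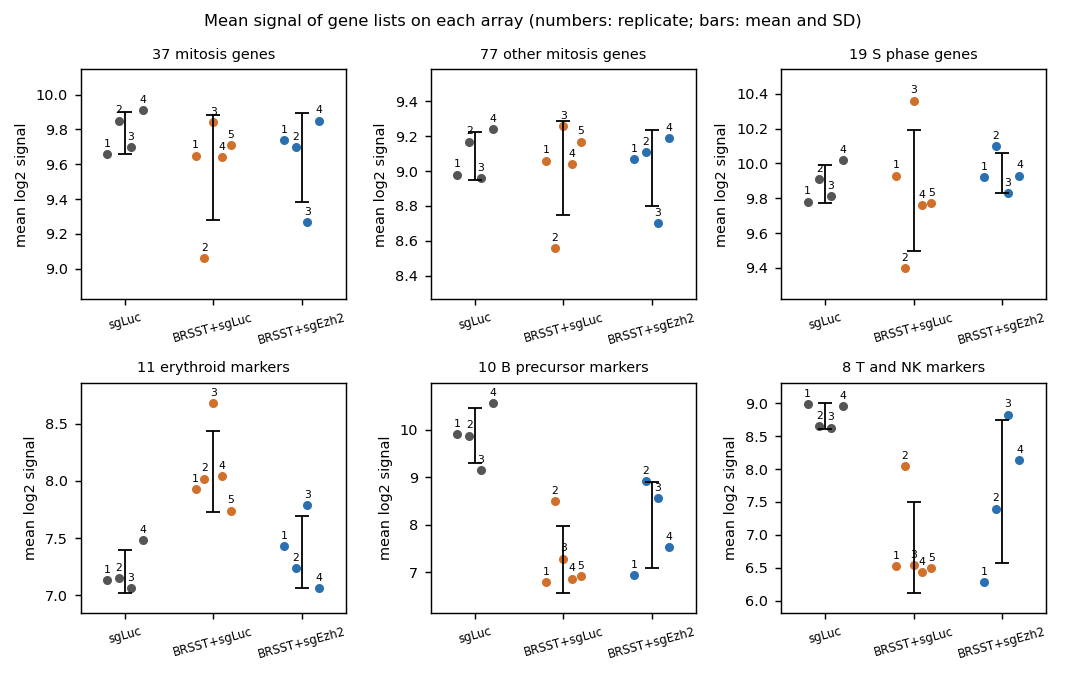
Mean log2 signal (y axis) of 6 gene lists on each array, by group (x axis), with replicate numbers, and group mean and SD as bars. Replicate 2 of BRSST+sgLuc is lowest for the mitosis, other mitosis and S phase lists and highest of its group for B precursor and T and NK markers, while sgLuc arrays lie above every array with BRSST for B precursor markers.

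Of 82 further mitosis genes, 75 were tested, and between BRSST+sgLuc and sgLuc 7 rose and 5 fell, which is 16% of them beside 22.5% of all genes. Pmf1 and Mis12 code for subunits of the same kinetochore complex: Pmf1 rose by 0.64 ± 0.11 (SE; limma adjusted p = 0.00166), and Mis12 fell by 1.04 ± 0.21 (0.00332). Cenpw, a centromere protein, rose by 0.71 ± 0.13 (0.00265). The others that rose were Cenpq, Cks2, Cenpu, Cenpk and Cdca3, by 0.71, 0.40, 0.38, 0.52 and 0.46. The other genes that fell were Cdc25b, Kif15, Lmnb1 and Pbk, by 0.63, 0.56, 0.40 and 0.50. Between BRSST+sgEzh2 and sgLuc, Pmf1 (0.44), Zwint (0.83) and Cenpw (0.49) rose and Depdc1b fell by 0.62, which is 5.33% of the 75 beside 9.37% of all genes. Between BRSST+sgEzh2 and BRSST+sgLuc 0 of 75 passed limma's test, beside 0.783% of all genes. At an unadjusted limma p under 0.05 there were 7 of the 75, beside 1472 of all 10601 genes.

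The anaphase-promoting complex marks securin and cyclin B for breakdown. Of its 17 genes 1 passed in each comparison with sgLuc, the subunit Anapc16, which rose by 0.64 ± 0.09 (SE; limma adjusted p = 0.000321) in BRSST+sgLuc and by 0.51 ± 0.09 (0.00322) in BRSST+sgEzh2. That is 5.88% of the complex, beside 22.5% and 9.37% of all genes. Of 19 tested S phase genes, 2 rose in BRSST+sgLuc against sgLuc, the replication licensing factor Cdt1 by 0.54 ± 0.16 (limma adjusted p = 0.0295) and its inhibitor Gmnn (geminin) by 0.50 ± 0.15 (0.0297). That is 10.5% of the list beside 22.5% of all genes, and 14 of the 19 had a lower mean. In the comparisons of BRSST+sgEzh2 with BRSST+sgLuc and with sgLuc, limma called 0 S phase genes, beside 0.783% and 9.37% of all genes. At an unadjusted limma p under 0.05 there were 0 and 1, beside 1472 and 2575 of all 10601 genes.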

How the data were processed

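RNA of whole bone marrow was labelled from 2 ng with a Pico kit and 10 PCR cycles, per the labels' protocols. The deposited values are log2 signals per array feature, made by the authors with oligo in R 3.5.01 (named in the submitters' processing notes). How they corrected background and normalized is not given in the labels. Of 22203 rows, 19572 had 1 symbol in the platform annotation, 0 several and 2631 none; the row of highest mean stood for a gene with several. A gene was tested when it lay above its array's median on at least 4 of the 13 arrays. One limma 3.58.1 fit (R 4.3.3) over all 13 arrays gave 3 contrasts, two-sided, with Benjamini-Hochberg adjustment over 10601 genes and a threshold of 0.05; the script was tested on simulated data. Promoters were searched with Python 3.11.15 and figures drawn with matplotlib 3.10.9. The number of arrays limits the precision. The members and lists were chosen with earlier results of these data known. Values on every array are given for Mki67, Top2a, Cdk1 and, per role, the member of smallest p and of largest difference; Bub1 and Ttk, and the genes of other lists beyond the 3 of smallest p per comparison, were chosen after their values were seen. Alternatives were another scaling, row choice, filter, weighting, block, threshold and leaving out each array.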

Additional observations from a re-analysis of the deposited data

Results flagged for a closer look

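Of 114 groups of values checked for a single array far from the rest, 15 held one. Chance gives about 5% for a single check. The checks are not independent, since the members share arrays and their own mean is among the items, so the count cannot be set against that share. Each outlying value was the lowest of its group. On replicate 3 of BRSST+sgEzh2 they were Ccna2 (log2 signal 9.82), Plk1 (10.18), Birc5 (10.97), Nuf2 (8.74), Kif2c (7.98), Nusap1 (9.75), Cdc20 (10.15) and Espl1 (8.53). On replicate 2 of BRSST+sgLuc they were Aurka (8.12), Aurkb (10.12), Incenp (8.02), Cenpe (8.82), Tpx2 (9.22), Cdc20 (10.41) and the mean over the 37 measured members (9.06). No gene of the chromatin or checkpoint roles was among them.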

How the results depend on the processing

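In BRSST+sgLuc against sgLuc, the 5 calls became 3 with a filter at the 75th percentile (28 members tested, beside 33.4% of all genes), 20 with array quality weights (13 lower, 7 higher, beside 46% of all genes), 2 with the Y-linked class as a block, 18 on arrays of the high Y-linked class and 1 at a threshold of 0.01 (beside 22.6%, 34.5% and 10.4%). Leaving out 1 array gave 1 (without sgLuc replicate 4) to 10 (without BRSST+sgLuc replicate 5), with 2 without sgLuc replicate 2, 3 without BRSST+sgLuc replicate 1 or 4 and 8 without BRSST+sgLuc replicate 2; all genes called then ranged from 14% to 26.8%. In BRSST+sgEzh2 against sgLuc, the 0 calls became 8 with array weights (all lower, beside 28.1% of all genes), 3 on arrays of the high Y-linked class (Anln, Bub1 and Bub1b, beside 17.7%) and 2 in a fit of the 2 groups alone. BRSST+sgEzh2 against BRSST+sgLuc stayed at 0 under each alternative run. The replicate block gave 6 calls (beside 24%) in BRSST+sgLuc against sgLuc and 0 in the other comparisons; Top2a (limma adjusted p = 0.0673) and Ttk (0.0579) did not pass, and the numbers do not pair the arrays (correlations of deviations between -0.18 and 0.19). In 150 bases before the start, 32.4% of the members' windows held a CHR, beside 9.07% of all, as this window leaves out the 50 bases after the start and the far upstream part. No called member changed direction under the alternatives run. The uncalled median of BRSST+sgEzh2 minus BRSST+sgLuc (0.051) changed sign with array quality weights (-0.025) and in fits that left out replicate 4 of BRSST+sgEzh2 (-0.014) or replicate 2 of BRSST+sgLuc (-0.087). Where not stated the cause was not tested.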
